A study of Homo sapiens with 2 samples.

Results

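The cytosolic ribosomal protein genes encode the protein part of the ribosome, and they were described here in Ramos cells and in Ramos640 cells. The members were the rows of the gene count table whose symbol was RPL or RPS followed by a number and, in some cases, by A, X or L, together with RPLP0, RPLP1, RPLP2 and RPSA, so that 77 of the 37122 rows were members. Of these, 30 encoded proteins of the small (40S) subunit and 47 proteins of the large (60S) subunit. Ramos is a human Burkitt's lymphoma B-cell line, and Ramos640 was derived from it by escalating rituximab in the presence of normal human serum (NHS), until the cells resisted the complement-dependent killing that this anti-CD20 antibody directs. Both lines were grown in RPMI 1640 with fetal bovine serum (10%) and penicillin/streptomycin (1%), and Ramos640 cells also received rituximab at 640 (mg/mL in the sample labels, μg/mL in the study's methods) with 20% NHS at intervals of 21 days, so line and maintenance treatment cannot be told apart. RNA of 3 passages was pooled into 1 library per line and sequenced as total RNA on the Ion Proton, so no difference below has a replicate check and no p-value is given.

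The libraries held 38030090 reads for Ramos and 30871826 for Ramos640. The size factors (median of ratios) were 1.14 and 0.876, and the counts divided by them, called normalized counts, are the unit of every level below unless reads are named. The log2 fold change is Ramos640 over Ramos with a pseudocount of 1, and its 95% interval (exact Clopper-Pearson on the reads) covers counting error only. The fold limits were those of the study, 1.5-fold in either direction. All 7 B-cell markers examined had between 1904 and 82890 reads, whereas the markers of T cells, monocytes and epithelial cells held at most 58, 9 and 19 reads in either library. In RNA of a whole culture, fewer expressing cells and less RNA per cell cannot be told apart.

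Each ribosome carries a single copy of most of its proteins, the exception being the paired stalk proteins, so cells make the members in concert and degrade proteins that are not assembled. Most of their mRNAs begin with a C followed by an unbroken run of pyrimidines, the terminal oligopyrimidine (TOP) motif, through which mTOR and the RNA-binding protein LARP1 set their translation. The genes have many intronless copies in the genome, most of them processed pseudogenes. In Burkitt's lymphoma, MYC, a known driver of ribosome production, is placed next to an immunoglobulin enhancer.

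As a group the members were slightly higher in Ramos640 cells, and single members went in both directions. The median log2 fold change over the 76 members with at least 10 reads was 0.16, with quartiles of -0.09 and 0.32, beside -0.02 over all 18778 genes tested and 0.07 over the 1362 genes with at least 10000 reads. The small subunit genes had a median of 0.09 and the large subunit genes one of 0.20, but their pooled reads had the opposite order (0.22 and 0.17), and with the GC trend removed the medians were 0.12 and 0.14. Of the 76 members, 51 (67.1%) were above 0, beside 48.8% of all genes tested and 59.5% of the deeply sequenced genes. With total counts as the scale 43 were above 0 and 33 below, and the members' median stood at 0.08. The members' median lay 0.18 above the median of all genes tested, a gap that a change of library scaling leaves almost as it is by construction, and with the GC trend described below removed it lay 0.13 above. The counting interval lay above 0 for 48 members (63.2%) and below 0 for 21 (27.6%), beside 29.6% and 31.6% of all genes tested. In the 68 members with at least 10000 reads, 48 intervals (70.6%) lay above 0 and 17 (25%) below, beside 54.6% and 35.2% of genes at that depth.

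Past the fold limits, 5 members (6.58%) were higher and 3 (3.95%) lower in Ramos640 cells, beside 14.6% and 17.3% of all genes tested. The 5 higher members all had at least 10000 reads and made up 7.35% of the 68 members at that depth, beside 7.2% of all such genes. At that depth 1 member (1.47%) was lower, beside 4.85% of such genes. In reads, the members took 8.22% of the Ramos library (8.21 to 8.23) and 8.89% of the Ramos640 library (8.88 to 8.90). On the size factors the pooled log2 fold change of these reads was 0.19, and on total counts, the scale of the shares, it was 0.11.

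**Figure D1:**
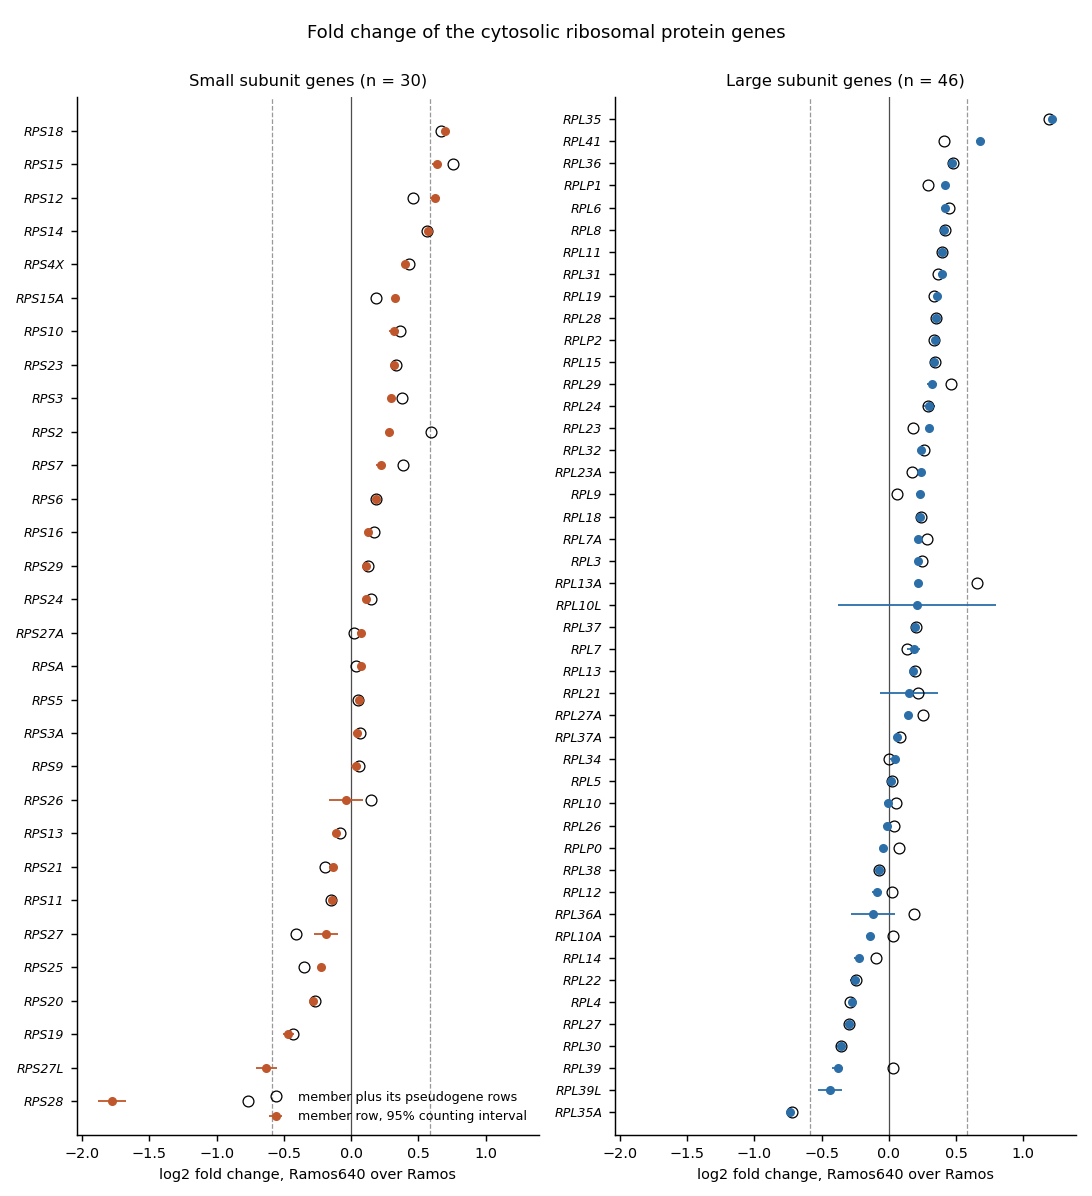
Log2 fold change, Ramos640 over Ramos, of the 30 small subunit and 46 large subunit members with at least 10 reads. Filled points are the member's own row with its 95% counting interval, open circles the member's reads plus those of its pseudogene rows, and dashed lines the limits of 1.5-fold. Most points lie between the limits, with RPL35 farthest to the right and RPS28 farthest to the left.

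The starts of the transcripts carried the pyrimidine run that the rule did not use. The set of RefSeq promoters (GRCh38.p14) used here held 63 of the 77 members, from 250 bases before to 50 after the annotated start. The starts of the other members were not examined. The first transcribed base was a C in 46 of the 63 (73.0%), beside 4093 of all 27305 promoters. A C followed by pyrimidines to a run of at least 5 bases was found in 42 (66.7%), beside 4.04% of all promoters. The windows below hold 15 bases before the start and 15 from it, with the longest run of C and T near the start in capitals. They show a member that was higher past the limit (RPL35), 2 of the lower members (RPL35A and RPS28), the substrate of the S6 kinases (RPS6), a member of the tunnel wall (RPL39), and the paralogs RPS27L and RPL10L, whose starts have no such run.
RPL35, chr9:124861943-124861972, minus strand: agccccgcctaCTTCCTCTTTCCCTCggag
RPL35A, chr3:197950175-197950204, plus strand: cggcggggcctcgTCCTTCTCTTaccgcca
RPS28, chr19:8321481-8321510, plus strand: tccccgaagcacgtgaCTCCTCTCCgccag
RPS6, chr9:19380222-19380251, minus strand: aagcggaagttggCCCTCTTTTCCgtggcg
RPL39, chrX:119791616-119791645, minus strand: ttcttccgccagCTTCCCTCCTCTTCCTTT
RPS27L, chr15:63157463-63157492, minus strand: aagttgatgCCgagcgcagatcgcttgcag
RPL10L, chr14:46651767-46651796, minus strand: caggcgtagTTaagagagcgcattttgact
The longest run measured 15 bases in RPL35, 10 in RPL35A, 9 in RPS28, 11 in RPS6 and 22 in RPL39, where it goes on past the end of the window, and 2 in both RPS27L and RPL10L. In RPS28 the run began 1 base after the annotated start. The 42 members with such a start had a median log2 fold change of 0.13 and the 21 without it one of 0.21. This split depends on the exact annotated start and does not separate TOP mRNAs from others. RPL19, RPL10A and RPS26, counted among the 21, had runs of 11, 10 and 9 bases near the start. Among the members past the limits, RPL35, RPS18, RPL41, RPS12 and RPL35A had such a start, and RPS15, RPS28 and RPS27L did not.

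Other promoter letters were counted on both strands of the same windows. CCGGAAG, a core bound by ETS factors, was present in 34.9% of the member promoters, beside 10.7% of all promoters, and GGGCGG, a core bound by SP1, in 57.1%, beside 44.6%. CACGTG, the E-box letters that MYC binds, was present in 3 of the 63 (4.76%), beside 7.43% of all promoters. Members with CCGGAAG (22) had a median log2 fold change of 0.22, and those without it (41) one of 0.11. Such a gap was not particular to these letters. The medians were 0.20 with GGGCGG (36) and 0.11 without it (27). For the pyrimidine letters CTCTTTCC they were 0.38 with (8) and 0.11 without (55). For CTTTTCC the order was the opposite, with 0.11 (15) and 0.19 (48). These are matches of letters only, and no binding was measured.

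RPL35, a large subunit protein beside the exit of the peptide tunnel, had the largest ratio of all members tested. Its level was 21251 in Ramos cells and 49382 in Ramos640 cells, a log2 fold change of 1.22 (1.19 to 1.24). Its pseudogene rows went from 9243 to 20435 (log2 fold change 1.14), and the sum of both gave 1.20. RPL35 lies at chr9:127620159-127624260 on the minus strand of GRCh37. RPL35 remained past the limit under total counts (1.14) and with the GC trend removed (1.04).

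The other higher members lay close to the limit. RPS18, in the head of the small subunit, had 68838 in Ramos cells and 111563 in Ramos640 cells, a log2 fold change of 0.70 (0.68 to 0.71). RPL41, the shortest ribosomal protein, had 12507 and 20041 (0.68, 0.65 to 0.71), but its pseudogene rows differed less, with 21354 and 25014, and the sum of both gave 0.41.
RPS15, which sits near the decoding site, had 13581 and 21100 (0.64, 0.60 to 0.67). RPS12, of the small subunit, had 8383 and 12909 (0.62, 0.58 to 0.66), and with its pseudogene rows 0.46. RPS12 and RPS15 were both within the limit on total counts, at 0.54 and 0.56. RPS18 and RPS15 were within it once the GC trend was removed, at 0.58 and 0.44. RPS14, whose loss on chromosome 5 is known from a myelodysplastic syndrome, was just inside the limit with 118596 and 175913 (0.57, 0.56 to 0.58).

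RPS28, a small subunit protein on the path by which mRNA leaves the ribosome, was the member with the lowest ratio. It had 3711 in Ramos cells and 1082 in Ramos640 cells, a log2 fold change of -1.78 (-1.88 to -1.68). Its pseudogene rows went from 9154 to 6471 (-0.50), and the sum of the row and its copies gave -0.77. RPS28 lies at chr19:8386042-8388224 (plus strand) and overlaps NDUFA7 on the opposite strand, a row with 541 Ramos and 222 Ramos640 reads (-0.90), and KANK3, also on the opposite strand, with 127 and 138 reads (0.50). Whether counting used the strand is not given in the sources used here, so reads of RPS28 and of these genes cannot be told apart where they overlap.

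RPL35A, a large subunit protein mutated in some families with Diamond-Blackfan anaemia, had 54883 in Ramos cells and 32901 in Ramos640 cells, a log2 fold change of -0.74 (-0.76 to -0.72). The RPL35A row held 95.6% of the reads of the gene and its pseudogenes in Ramos and 94.3% in Ramos640, and the sum gave -0.72. RPL35A lies at chr3:197677061-197683481 (plus strand), and the gene on the opposite strand, IQCG, held 119 and 39 reads (-1.21). RPS27L, a paralog of RPS27 that p53 induces, had 3509 and 2265 (-0.63, -0.71 to -0.55), had no pseudogene row, and was within the limit once the GC trend was removed (-0.39). RPS27L overlaps LACTB on the opposite strand, a row with 206 Ramos and 94 Ramos640 reads (-0.75). The limit on strand given for RPS28 holds for RPL35A and RPS27L too.

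Many reads of the family were counted on pseudogene rows, and how reads that fit several genes were assigned is not given in the sources used here. The 1788 rows named as a pseudogene of a member took 5.61% of the library in Ramos and 6.57% in Ramos640, and together with the members these shares were 13.8% and 15.5%. Of the 73 members with such rows, 26 had fewer reads than their pseudogene rows together and 11 held at least 90% of the sum, with a median of 69.2% on the member's own row. The pooled log2 fold change of the pseudogene rows had the member's sign in 56 of the 73. Adding the pseudogene reads turned the sign of 8 members and moved 7 by more than 0.2. With them added, 5 members were higher and 3 lower past the limits, among them 3 of the 5 and all 3 that were past the limits on their own row.

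The sequences below show how little separates a member from a copy that took more reads than it did. Each line is 60 bases of the coding strand, and capitals mark the bases at which the pair differ. The bases of member and copy were both read from GENCODE v44lift37 transcripts, and the positions are those of GRCh37. RPL13A, part of an interferon-induced complex that represses translation, is shown at coding bases 46 to 105 beside RPL13AP5 (chr10:98510045-98510656, plus strand), which matched it at 99.51% of 612 bases.
RPL13A: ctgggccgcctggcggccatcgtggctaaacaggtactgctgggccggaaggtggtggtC
RPL13AP5: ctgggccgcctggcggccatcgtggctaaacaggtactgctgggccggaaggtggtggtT
RPS18 is shown at coding bases 149 to 208 beside RPS18P5 (chr3:101295333-101295791, minus strand), which matched it at 98.69% of 459 bases.
RPS18: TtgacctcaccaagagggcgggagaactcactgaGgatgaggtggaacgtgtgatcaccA
RPS18P5: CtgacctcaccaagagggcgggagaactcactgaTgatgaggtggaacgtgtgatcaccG
RPS28 and RPS28P7 (chr11:82400601-82400810, plus strand) were identical over all 210 bases of the copy, and their first 60 coding bases therefore have no capitals.
RPS28 and RPS28P7: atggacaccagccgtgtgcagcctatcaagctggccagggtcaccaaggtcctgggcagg

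RPL13A itself had 38721 in Ramos cells and 45008 in Ramos640 cells (log2 fold change 0.22, 0.20 to 0.24), but RPL13AP5 alone had 104307 and 193880 (0.89). With all its pseudogene rows RPL13A had a log2 fold change of 0.65 and was past the limit. RPS2, of the small subunit, was also past it with its copies, at 0.60 beside 0.28 on its own row. RPS18P5 had 92458 and 145473 (0.65), a difference near that of RPS18 itself. RPS28P7 had 6979 and 4286 (-0.70), the direction of RPS28 but a smaller difference.
RPL36A, a protein at the exit site for transfer RNA, had 630 in Ramos cells and 581 in Ramos640 cells, beside 15692 and 17803 for RPL36AP37, a copy identical to it over 321 bases. The RPL36A row held 2.78% of the family's reads in Ramos and 2.25% in Ramos640. The row RPL36A-HNRNPH2, which overlaps RPL36A on the same strand, held 1375 Ramos and 961 Ramos640 reads (-0.14). Neither these shares nor the sum with the copies includes that row. RPL21 (345 and 383) held 1.26% and 1.20% beside 134 pseudogene rows. RPS26 (1057 and 1028) held 8.53% and 7.47%. RPL21 and RPS26 are proteins of the large and small subunit. For RPL21, RPS26 and RPL36A the counting interval on the member row held 0, and with the copies the log2 fold changes were 0.22, 0.15 and 0.19.

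**Figure D2:**
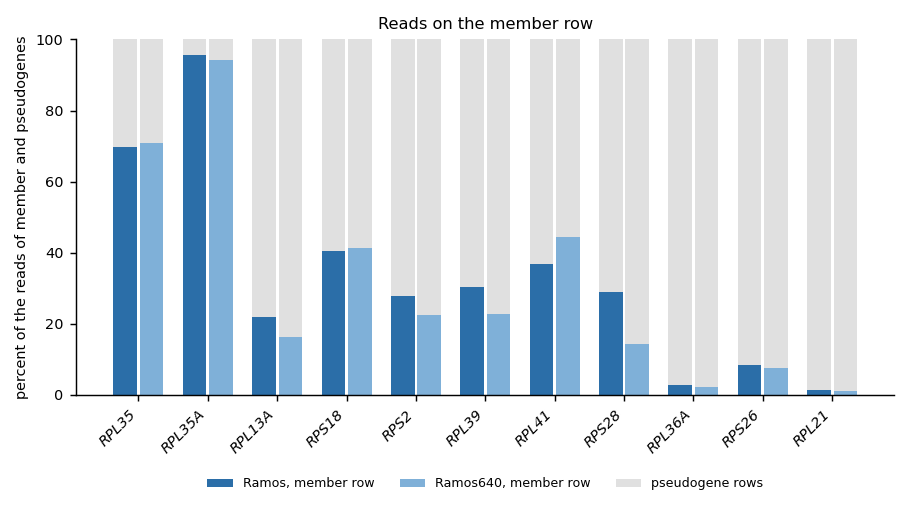
Percent of the reads of a member and its pseudogene rows that lie on the member's own row, for 11 members in Ramos (dark) and Ramos640 (light), from 95.6% for RPL35A to 1.26% for RPL21 in Ramos.

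The members with roles outside or at the centre of protein synthesis were mostly within the limits. RPL5 and RPL11, which bind 5S RNA and hold back MDM2 when ribosome assembly fails, had intervals that did not overlap. RPL5 had 54308 in Ramos cells and 54992 in Ramos640 cells (log2 fold change 0.02, 0.00 to 0.04), and RPL11 had 44722 and 58906 (0.40, 0.38 to 0.42). The stalk, which recruits the elongation factors, also differed among its parts. RPLP0, its base, had 121397 and 118050 (-0.04, -0.05 to -0.03), whereas RPLP1 had 29505 and 39514 (0.42) and RPLP2 had 47519 and 60221 (0.34). RPLP0 with its pseudogene rows had 0.08, so its sign was not kept.

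RPS6, the substrate of the S6 kinases downstream of mTOR, had 150575 and 171585 (0.19, 0.18 to 0.20), and its direction was kept under total counts (0.11). RPS3, at the entry of the mRNA channel, had 52458 and 64373 (0.30), and RPS4X, encoded on the X chromosome, had 74678 and 98636 (0.40). RPSA, also described as a laminin receptor precursor, had 78775 and 82950 (0.07), and RPS27A, made as a fusion with ubiquitin, had 16317 and 17192 (0.08). RPSA, RPS27A and RPL5 were among 8 members whose sign turned on total counts, none of them farther than 0.08 from 0.
Of some other genes known from Diamond-Blackfan anaemia, RPS19 had 12686 and 9176 (-0.47, -0.51 to -0.43), past the limit once the GC trend was removed (-0.62). RPS24 had 63363 and 68261 (0.11), and RPL26, which also binds the mRNA of p53, had 19057 and 18879 (-0.01, -0.04 to 0.02). RPL22, known to bind a small RNA of Epstein-Barr virus, had 13398 and 11251 (-0.25), but -0.04 with the GC trend removed. RPL23A, a docking site at the tunnel exit, had 15546 and 18370 (0.24, and 0.23 with the GC trend removed). The genes named here for Diamond-Blackfan anaemia (RPS19, RPS24, RPL26 and RPL35A) are only some of those known from it. Their signs differed and are not a result about that set. For RPL26 the interval held 0. RPL22 and RPL23A, named for other roles, had opposite signs.

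The paralogs of members were set beside their partners. RPL3L, the muscle form of RPL3, a protein near the peptidyl transferase centre, had 1 read in Ramos and 0 in Ramos640 and was the 1 member not tested. RPL3 had 70675 and 82247 (0.22). RPL10L, the testis form of RPL10, had 47.3 and 54.8 (0.21, -0.38 to 0.80), at which depth no difference was detectable, and RPL10 had 16239 and 16180 (-0.01, -0.04 to 0.03).
RPL39L, a paralog of the tunnel protein RPL39 known from testis and tumour cells, had 2344 and 1731 (-0.44, -0.53 to -0.35). RPL39 had 10124.5 and 7775 (-0.38, -0.42 to -0.34) on its own row but 0.03 with its pseudogenes. RPS27 had 2209 and 1940 (-0.19, -0.28 to -0.10) and, with its pseudogenes, -0.41, beside -0.63 for RPS27L. RPL39L and RPS27L thus had values below 0, as did the rows of their partners.

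Per kilobase of the canonical transcript, the order of the members was much the same in both libraries. The median level was 26153 normalized counts per kb in Ramos and 29716 in Ramos640 over the 76 members tested. Across these 76 members, which share both libraries, the log2 levels had a Pearson r of 0.98 and a Spearman rho of 0.97. The highest by mean level per kb were RPS18 (125387 and 203212), RPS13 (134210 and 124312), RPS24 (118658 and 127829), RPS6 (109989 and 125336) and RPLP2 (102854 and 130348).
RPS13 was first in Ramos and RPS18 first in Ramos640. RPS13, a small subunit protein, had a log2 fold change of -0.11 (-0.13 to -0.10). The lowest were RPL3L, RPL10L (61.3 and 71.0), RPS27L (574 and 371), RPL21 (610 and 677) and RPL36A (828 and 763). RPL21 and RPL36A are the members with few of their family's reads, and RPS27L has a long annotated transcript of 6110 bases. Per kilobase of coding sequence instead, RPS14, RPL41, RPS6, RPS18 and RPS23 were the first 5, so ranks among the high members depended on the length used. The 10 members with the most reads held 33.8% of member reads in Ramos and 35.2% in Ramos640.

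**Figure D3:**
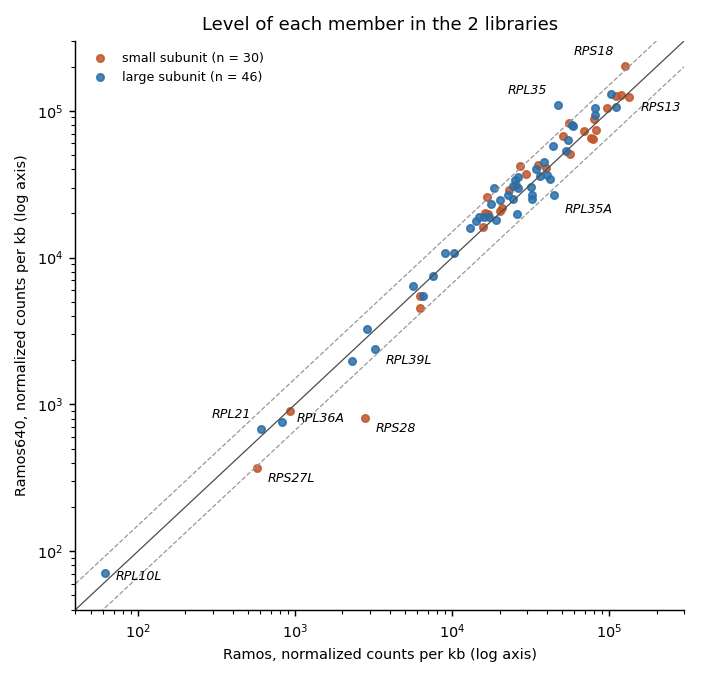
Normalized counts per kb of the canonical transcript in Ramos (x axis) and Ramos640 (y axis), both on log axes, for 30 small subunit and 46 large subunit members. The solid line marks equal levels and the dashed lines 1.5-fold, and RPL35 and RPS18 lie above the upper line while RPS28, RPL35A and RPS27L lie below the lower one.

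Fold changes rose with GC content over all genes, and among the members too. The Spearman rho of log2 fold change and transcript GC content was 0.43 across 10234 protein-coding genes (those with 100 reads or more) and 0.24 across 76 members, all from the same pair of libraries. The 26 members with the lowest GC content (40.1% to 45.5%) had a median log2 fold change of 0.05, where the running median of the genes was -0.14. In the 25 with the middle GC content it was 0.21, beside -0.00087. In the 25 with the highest (51.9% to 63.6%) it was 0.22, beside 0.13. With the trend removed, the members' median was 0.14, 50 of the 76 were above 0, and 4 were higher and 3 lower past the limits. The part of GC content in these differences was not tested.

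**Figure D4:**
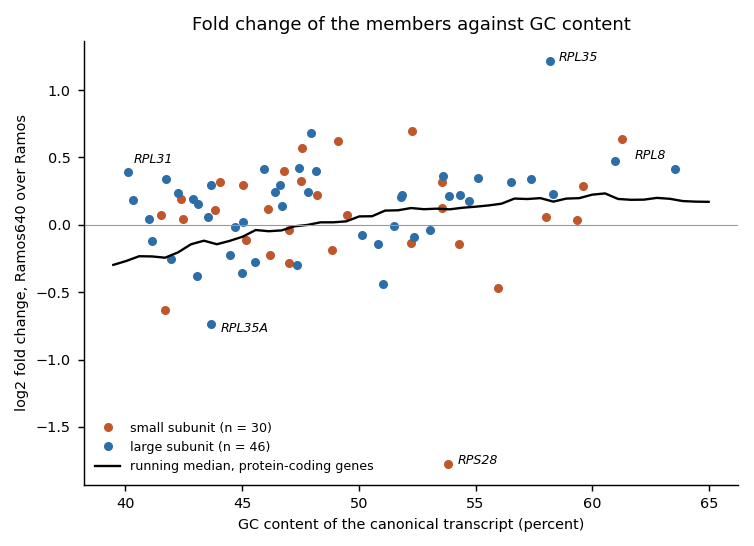
Log2 fold change of 76 members against the GC content of the canonical transcript in percent, with the running median of protein-coding genes as a line. At low GC content most members lie above the line, and at high GC content they lie on both sides of it, with RPL35 far above and RPS28 far below.

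Other genes of the translation machinery had medians on either side of that of the members. The 6 genes of cytosolic ribosomal proteins or paralogs of them that the rule left out had a median of 0.07. RPL7L1, a paralog of RPL7, was the 1 past the limit, with 1541 and 2592 (0.75). GNB2L1, which encodes the small subunit scaffold RACK1, had 0.20. The 19 other TOP mRNAs had a median of 0.11 and none was past a limit. Of all genes tested, 14.6% were higher and 17.3% lower past the limits. Among genes with at least 10000 reads, the depth of most of these mRNAs, the shares were only 7.2% and 4.85%. EEF2, the translocase of elongation, had 125423 and 143830 (0.20), and EEF1A1, which brings transfer RNA to the ribosome, had 101172 and 129329 (0.35). The 8 TOP snoRNA host transcripts had a median of -0.14, with SNHG6 lower past the limit (-0.62) and GAS5 at 0.38.

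The 75 genes of ribosome biogenesis had a median of 0.25, and 13 were higher and 0 lower past the limits, beside 14.6% and 17.3% of all genes tested. Among genes with at least 10000 reads, a depth that most of the 75 did not reach, these shares were 7.2% and 4.85%. RRP9, a protein of the U3 particle, had 1630 and 4332 (1.41), BOP1 had 1526 and 3800 (1.32), RRS1 had 2617 and 6186 (1.24), NOL6 had 2615 and 5919 (1.18) and RRP12 had 1505 and 3046 (1.02). BOP1 and RRS1 act in the assembly of the large subunit, and NOL6 and RRP12 in that of the small. PES1, the partner of BOP1, had 0.97, and the other 7 of the 13 lay between 0.59 (NOC2L) and 0.76 (NOP2). NCL and NOP56, the most abundant of the list, had 0.18 and 0.61. The 15 genes of RNA polymerase I had a median of 0.09, with 2 higher, CD3EAP (0.91) and POLR1C (0.85), and 0 lower past the limits. The same 14.6% and 17.3% of all genes tested stand beside these calls and those of the mitochondrial and growth regulator lists.
The 76 mitochondrial ribosomal proteins had a median of 0.10, with MRPL54 (1.07) and MRPS26 (0.62) higher and MRPL50 (-0.74) and MRPS36 (-0.62) lower past the limits. Of the 8 growth regulators, MYC was past the limit, with 14183 in Ramos cells and 24609 in Ramos640 cells (0.79, 0.77 to 0.82). LARP1, the other abundant gene of that list, had 10514 and 13433 (0.35).

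Small nucleolar RNAs (snoRNAs), which guide the modification of ribosomal RNA, lie in the introns of many members and had rows of their own. Of 40 such rows 39 were tested, in 21 host members, and their median log2 fold change was 0.62, beside 0.18 for the hosts and 0.30 for the other 236 snoRNA rows tested. Past the limits 20 were higher and 0 lower, beside 85 higher and 25 lower of the other 236 and 14.6% and 17.3% of all genes tested. In 33 of the 39 the value was larger than that of the host. SNORD14B, inside RPS13, had 77.1 and 365 (2.23, 1.90 to 2.60), whereas RPS13 had -0.11 and SNORD14A, in the same host, had 133 and 121 (-0.14, -0.51 to 0.23). SNORD100, inside RPS12, had 226 and 883 (1.96, 1.76 to 2.17), and SNORD101 in that host held only 13 and 8 reads (-0.29, -1.80 to 1.06). SNORD42A, inside RPL23A, was the most abundant, at 1.31, and of the other 3 rows in that host SNORD4B had 1.36, SNORD42B 1.10 and SNORD4A -0.0033 (-0.26 to 0.25). Together the 40 rows took 0.0248% of all reads in Ramos and 0.0421% of those in Ramos640.

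**Figure D5:**
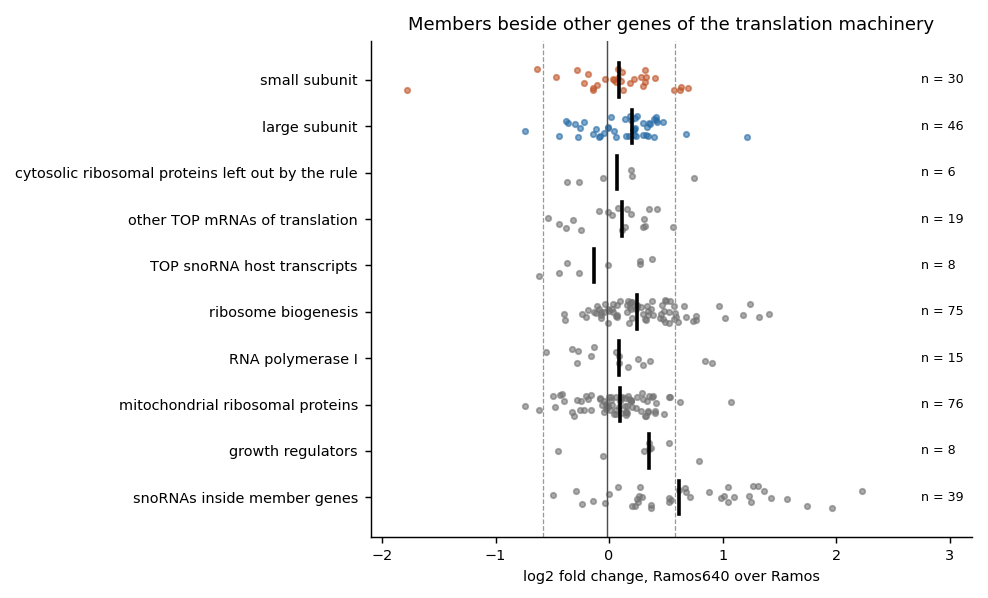
Log2 fold change of each gene in the member subunits and in 8 other lists, with black bars for the medians, n for the genes tested, a solid line at the median of all genes tested (-0.02) and dashed lines at 1.5-fold. The member subunits, the TOP snoRNA host transcripts and the mitochondrial ribosomal proteins have points below the lower dashed line, and the other 6 lists have none.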

How the data were processed

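RNA-seq measured gene expression in Ramos and Ramos640 cells, with 1 library per line (3 passages pooled). Before deposit, the authors removed adaptors, aligned the Ion Proton reads to GRCh37 with MapSplice (v2.1.6) and deposited raw counts per gene. The counting program, its annotation, its use of strand and its treatment of reads that fit several genes are not given in the sources used here. Of the 37122 rows, 26 carry a number in place of a gene name, and they were kept. The members and lists were chosen with earlier results of these data known. Some genes that the name pattern or the lists also hold are not reported here and enter no count of members.

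The scale was set by size factors (median of ratios, the method of DEseq). The alternatives were edgeR TMM factors (version 4.0.16), total counts, and size factors without the members and their pseudogene rows. Genes with 10 reads or more over both libraries counted as tested (alternatives 1 and 100), and the pseudocount was 1 (alternatives 0.1 and 10). With 1 library per line, no dispersion can be estimated and no test was run. Pseudogene rows are named by the member symbol followed by P. Length, GC content and positions came from GENCODE v44lift37 (26511 rows matched by symbol, 2279 by an older symbol), and copies were aligned with blastn (2.17.0). The GC trend was a running median over 501 genes. Members named were the 5 largest differences in each direction, the 5 highest and lowest levels, those past the limits and a list by role. The coding length and the copies, overlapping genes and transcript starts shown were chosen after the data were seen. The size factors, log2 fold changes, counting intervals and fold calls were tested on simulated counts that held counting error only. The pseudogene sums, the GC trend and the sequence steps were not part of that test. The depth was 38030090 and 30871826 reads, and at this depth a row of 0 reads allows up to 3 reads.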

Additional observations from a re-analysis of the deposited data

How the results depend on the processing

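The pooled log2 fold change of the member reads was 0.18 with TMM factors and 0.11 on total counts, beside 0.19. With size factors computed without the members and their pseudogene rows it was 0.21. On total counts the members' median was 0.08, that of the small subunit genes 0.011, and 3 members were higher past the limit. The small subunit median was 0.14 with pseudogene reads added and 0.12 with the GC trend removed, beside 0.09. That of the large subunit genes was 0.12 on total counts, 0.20 with pseudogene reads added and 0.14 with the GC trend removed, beside 0.20. Adding the pseudogene reads gave a pooled value of 0.24 and shares of 13.8% for Ramos and 15.5% for Ramos640. Of the members named, RPL5, RPSA and RPS27A turned sign on total counts, each lying within 0.08 of 0, and 8 of all members turned sign with pseudogene reads added. TMM factors changed the call of 0 members, total counts of 2 and size factors without the members and their pseudogene rows of 1. Neither pseudocount changed the counts past the fold limits, 5 higher and 3 lower, nor did a minimum of 100 reads. At a minimum of 1 read RPL3L entered, 4 members were lower past the limit, and the members' median was 0.15. No paired analysis was possible because each line has 1 library.

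Leaving out a replicate was not possible for the same reason. Identity between pseudogene rows and members was computed for 910 of the 1145 rows with at least 10 reads (79.5%), so a summary over identity is void and only single pairs are shown. Counts of members with near-identical copies remain uncertain. The level of a row depends on the annotated length.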
